A study of Arabidopsis thaliana with 15 samples.

Results

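MYB74 (AT4G05100) encodes a transcription factor of the R2R3-MYB family, and its rows were taken by the annotated coordinates: all rows of the methylation table on chromosome 4 from 2616372 to 2620947 (TAIR10), which take in the annotated gene with 2000 bp before it and 1000 bp after it. It is 1 of 27444 protein-coding genes annotated on chromosomes 1 to 5. The interval holds 1478 cytosines of the 42859750 in the table, of which 220 are in the CG context, 128 in CHG and 1130 in CHH, where H is A, C or T. The gene lies on the plus strand from 2618372 to 2619947 and has 3 exons. No other annotated gene overlaps the interval.

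The libraries follow wild-type Col-0 Arabidopsis thaliana through germination, with 3 biological replicates at each of 5 time points. Dry seeds (0 h), whose drying in the dark took 14 days, were put on medium and kept dark at 4 °C for 48 h (48 h S), then brought to 22 °C in constant light for 6 h (6 h SL), for 24 h (24 h SL) or for 48 h (48 h SL). Seeds from plants of a single batch were used throughout, and all groups are the same genotype with no transgene. DNA came from whole seeds or seedlings: the material is labelled seed at 0 h and seedling at 48 h SL. Time and tissue therefore cannot be told apart at those ends, nor can a change in every cell from a change in the make-up of cells.

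MethylC-seq reads bisulfite-treated DNA, in which an unmethylated cytosine is read as thymine and a methylated one still as cytosine. A call is 1 such reading, and a level is the percentage of methylated calls among all calls. The libraries hold between 97238997 and 428839380 calls, the lowest being 24 h SL replicate 1, and between 2.95 and 12.2 calls per cytosine in the interval.

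In plants, CG methylation is copied at replication by MET1, CHG methylation is kept by CMT3 together with a histone mark, and CHH methylation has to be placed anew, by DRM2 under the guidance of small interfering RNAs (RNA-directed DNA methylation) or by CMT2 in long silent elements. MYB74 belongs to R2R3-MYB subgroup 11 with MYB41, MYB49 and MYB102. In Arabidopsis leaves it is known as a gene induced by salt stress whose promoter is a target of RNA-directed DNA methylation. The study itself singled the gene out from these libraries, so the tests below are no independent evidence that its promoter lost methylation.

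The methylation of the locus sat in 1 short patch upstream of the gene, and CHH methylation there was lost late while CG methylation was not called lower. The patch was taken as the longest run of neighbouring CHH cytosines with at least 50% methylation at 0 h. This choice used the CHH levels of 0 h, so comparisons of patch CHH with 0 h are descriptive. The patch spans chr4:2617835-2617994 (TAIR10), 160 bp that lie 537 to 378 bp before the annotated start of MYB74, and it holds 57 cytosines: 45 CHH (19 on the plus and 26 on the minus strand), 4 CHG and 8 CG. Its sequence is shown with 30 bp on either side (chr4:2617805-2618024, plus strand, from the TAIR10.1 RefSeq genome), because the capitals make the edges and the loss visible. A capital C is a plus-strand cytosine, and a capital G a minus-strand cytosine, with at least 50% methylated calls at that time point, the 3 replicates summed. A cytosine with fewer than 4 summed calls at a time point is a small letter there.
0 h: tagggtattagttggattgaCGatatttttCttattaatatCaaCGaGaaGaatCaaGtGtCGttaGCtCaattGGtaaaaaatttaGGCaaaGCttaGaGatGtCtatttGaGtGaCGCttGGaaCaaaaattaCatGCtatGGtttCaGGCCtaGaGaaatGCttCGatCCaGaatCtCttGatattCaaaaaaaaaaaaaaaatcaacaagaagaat
24 h SL: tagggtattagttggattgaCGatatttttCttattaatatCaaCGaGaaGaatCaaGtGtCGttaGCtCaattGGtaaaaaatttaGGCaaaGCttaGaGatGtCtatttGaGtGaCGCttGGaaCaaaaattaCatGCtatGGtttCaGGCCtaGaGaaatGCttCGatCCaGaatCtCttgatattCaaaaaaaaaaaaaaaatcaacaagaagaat
48 h SL: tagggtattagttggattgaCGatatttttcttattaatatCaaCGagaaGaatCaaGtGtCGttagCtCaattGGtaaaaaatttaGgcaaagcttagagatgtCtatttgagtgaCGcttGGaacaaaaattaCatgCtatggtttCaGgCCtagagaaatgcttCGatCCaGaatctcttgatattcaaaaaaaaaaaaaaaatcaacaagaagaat
The first line has 59 capitals among 70 cytosines, the second 58, and the third 32. The 1 letter that differs between the first 2 lines, 384 bp upstream, had 2 of 3 calls methylated at 24 h SL. It is small there for its few calls and does not mark a loss. What was left in capitals at 48 h SL included every CG and CHG cytosine of the patch, together with 18 of its 45 CHH cytosines.

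The edges of the patch were sharp in CHH. On the far side, the last CHH cytosine before the patch (2617823, 549 bp upstream, minus strand) was 11.1% methylated at 48 h SL and 13% at 0 h, and the first of the patch, 12 bp nearer the gene, was 35.1% at 48 h SL and 61.9% at 0 h. On the near side the patch ends at a run of 16 A that carries no cytosine on either strand. The first cytosines beyond it, 360 and 357 bp upstream, stood at 24.1% and 24.0% at 48 h SL and at 15.8% and 27.8% at 0 h. CG methylation reached further from the gene than CHH: the CG pair 547 and 546 bp upstream was 72.2% and 82.1% methylated at 48 h SL, against 70.0% and 59.1% at 0 h, and the pair 573 and 572 bp upstream was 44.7% and 52.2% methylated at 48 h SL, against 37.5% and 36.0% at 0 h. On the gene side the nearest CG cytosines beyond the patch, 277 and 276 bp upstream, had no methylated call in any library. The patch ends 378 bp upstream, so no CG cytosine lay as close to it there as on the far side. Whether CG methylation also reached past CHH on the gene side could therefore not be seen.

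**Figure D1:**
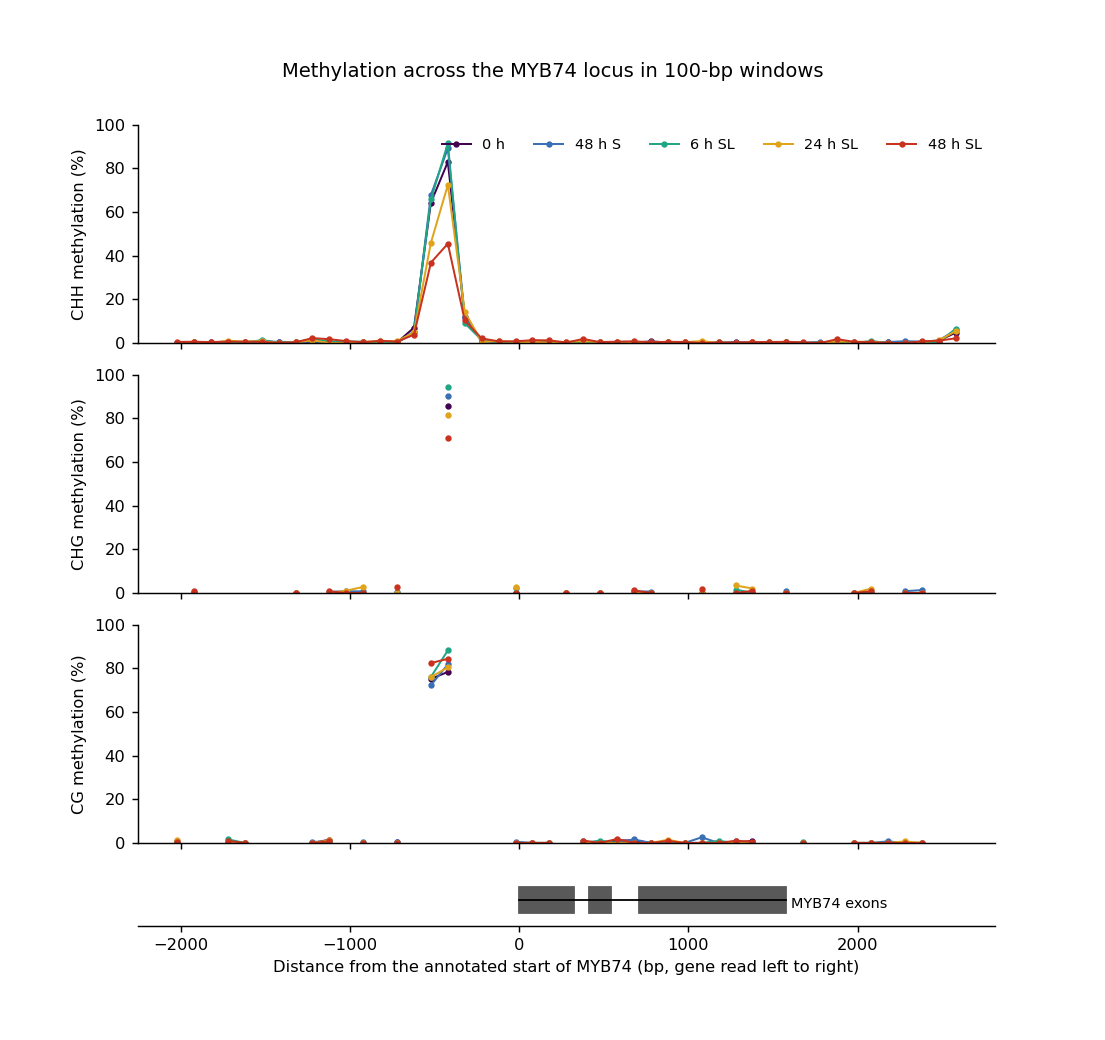
Methylation level (%, calls of the 3 replicates summed) in 100-bp windows with at least 3 cytosines of the context, against the distance from the annotated start of MYB74 (bp), for CHH, CHG and CG, with 1 line per time point and the exons below; lines break where a window has fewer than 3. All 3 contexts peak in the windows 571 to 372 bp upstream and lie near 0 over the gene, and only in CHH does the 48 h SL line fall below 50% there.

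At a limit of 50%, the extent of the patch was the same through the first 6 h of light. At 0 h, at 48 h S and at 6 h SL the run of CHH cytosines at or above 50% had the same ends and the same 45 cytosines, with 0 others in the interval at or above that level. At 24 h SL it had the same ends with 44 of the 45. Runs and counts took in only cytosines with at least 4 calls at the time point, replicates summed. The cytosine missing at 24 h SL, 384 bp upstream, fell under this minimum, with 2 of 3 calls methylated, and was not below 50%. At 48 h SL, 18 CHH cytosines were at or above 50%, scattered along the patch, and the longest run was 5 cytosines over 21 bp. With the limit at 20% instead, the length of the run was 160, 184, 190, 172 and 151 bp in time order, with 45, 48, 47, 45 and 43 cytosines. The longer runs reached past 1 or both ends of the patch, and the run of 48 h SL still covered most of the patch. At a limit of 80% the counts of CHH cytosines were 35, 41, 44, 13 and 0 in time order.

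By library, the CHH level of the patch was 85.5, 85.4 and 87.1% at 0 h, 87.8, 90.1 and 90.8% at 48 h S, and 90.9, 91.6 and 91.0% at 6 h SL. The germinating seeds of 24 h SL held 69.5, 81.2 and 65.3%. The seedlings of 48 h SL held 48.2, 42.9 and 53.4%. The 3 libraries of 48 h SL lay below all others, those of 24 h SL below all earlier ones, and within each of the first 3 time points the replicates were within 3.02 points of one another. The means were 86.0% ± 0.96, 89.6% ± 1.6, 91.1% ± 0.37, 72.0% ± 8.3 and 48.2% ± 5.3 in time order (SD, n = 3 each). At 48 h SL, 56.0% of the 0 h level was left, and at 24 h SL 83.8%. These levels rest on 128 to 729 calls per library, and the Wilson 95% intervals of single libraries reach from 61.1 to 76.8% for the thinnest (24 h SL replicate 1) and from 88.5 to 92.7% for the deepest (48 h S replicate 3). Such intervals take in counting error alone, and take each call as separate although 1 read can give several.

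**Figure D2:**
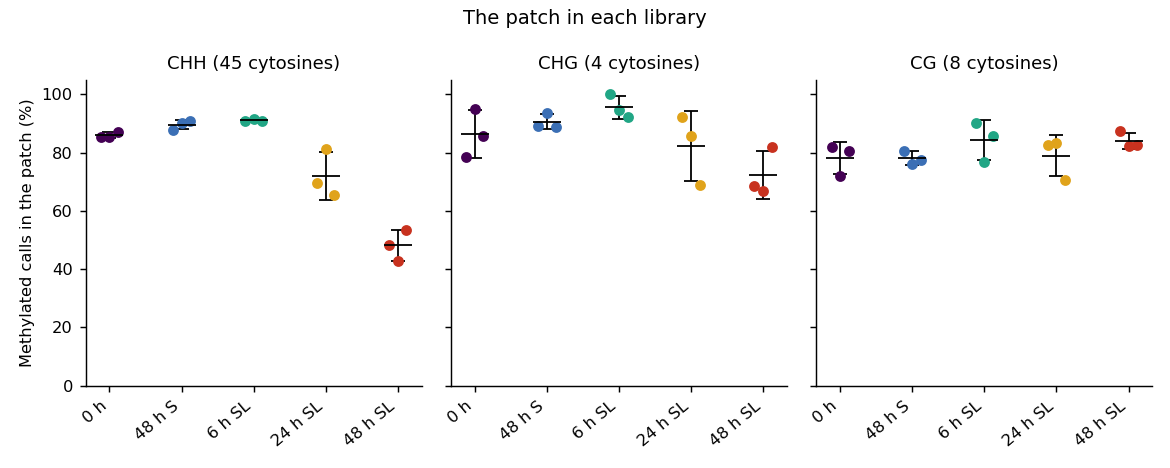
Methylated calls in the patch (%) by time point, 1 point per library, with the mean (bar) and SD (whisker) of 3 replicates, for the 45 CHH, 4 CHG and 8 CG cytosines. CHH averages 72.0% at 24 h SL and 48.2% at 48 h SL, while the 3 CG values of 48 h SL lie between 82.1 and 87.3%.

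CHG methylation, which only 4 cytosines of the patch carry, was 86.4% ± 8.2, 90.6% ± 2.6, 95.5% ± 4.1, 82.3% ± 12.2 and 72.4% ± 8.2 in time order (SD, n = 3 each). The libraries of 48 h SL (68.6, 66.7 and 81.8%) overlapped those of 0 h (78.6, 95.0 and 85.7%). CG methylation of the 8 patch cytosines was 78.0% ± 5.5, 78.1% ± 2.3, 84.2% ± 6.9, 78.9% ± 7.1 and 84.0% ± 2.8 in time order (SD, n = 3 each). Every library of 48 h SL (87.3, 82.1 and 82.6%) was above every library of 0 h (81.9, 71.8 and 80.4%), by as little as 0.215 points.

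For a test, calls were summed in 100-bp windows over chromosomes 1 to 5, and all 15 libraries entered a quasi-binomial model in which each time point has its own mean. A window was called at a Benjamini-Hochberg adjusted p below 0.05 over all windows of the context and a difference of at least 20 points. Of the 47 CHH windows of the MYB74 interval, 2 were called between 48 h SL and 0 h, both lower, against 1.94% of the 1124550 CHH windows tested in the genome. The nearer one, 471 to 372 bp upstream, held 44.0, 41.9 and 53.9% at 48 h SL, against 79.4, 87.1 and 84.4% at 0 h. The 2 groups did not overlap there, and the summed level fell by 37.5 points (quasi-binomial model, adjusted p = 0.000567). The farther one, 571 to 472 bp upstream, held 39.6, 33.7 and 33.8% at 48 h SL, against 70.8, 45.5 and 73.0% at 0 h. Here too the groups did not overlap, and the level fell by 27.5 points (quasi-binomial model, adjusted p = 0.0139), but the call was lost without 0 h replicate 1 (adjusted p = 0.124), 0 h replicate 3 (0.0550), 48 h SL replicate 1 (0.0516) or 48 h SL replicate 2 (0.0522). The low value of 0 h replicate 2 in this window goes with where its calls fell: 47.3% of them were at the 8 cytosines before the patch, against 29.6 and 25% in the other 2 dry-seed libraries, and within the patch that library stood at 85.4%, like the other 2.

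In CHG, 1 window of the patch could be tested, and its level fell short of a call: it was 14.5 points lower at 48 h SL than at 0 h (quasi-binomial model, p = 0.0471, adjusted p = 0.780). In CG, the 2 windows of the patch were 6.00 and 7.27 points higher at 48 h SL (adjusted p = 0.796 and 0.794). No CHG or CG window was called between these times in the genome, or 0% of 517997 and 440314 windows, although 11556 CHG and 17115 CG windows had an unadjusted p below 0.05; limma on arcsine square root levels called 101 CHG windows lower and 1 higher and 2 CG windows lower and 5 higher in the genome, and 0 in the interval. Whether CHH and CG moved apart was tested within each library, as the CHH level minus the CG level of the same window. In the nearer window this difference was -37.7 points ± 5.1 at 48 h SL and 3.37 ± 6.7 at 0 h (SD, n = 3 each). Its values at 48 h SL lay between -40.7 and -31.8, all below the 12 other libraries, which lay between -21.7 and 10.7 (exact 2-sided permutation test of 3 against 12 libraries, p = 0.0022, the smallest it can give). CHH minus CG in the farther window and CHH minus CHG in the nearer one gave the same p, with values of -44.9 ± 2.1 at 48 h SL against -7.00 ± 8.4 at 0 h, and -25.8 ± 1.9 against -2.79 ± 4.6 (SD, n = 3 each). All 3 differences that were computed are given, their p adjusted over the 3 is also 0.0022, and 3 against 3 libraries cannot go below 0.1. The windows were taken for their levels and this test was added after the levels had been seen.

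**Figure D3:**
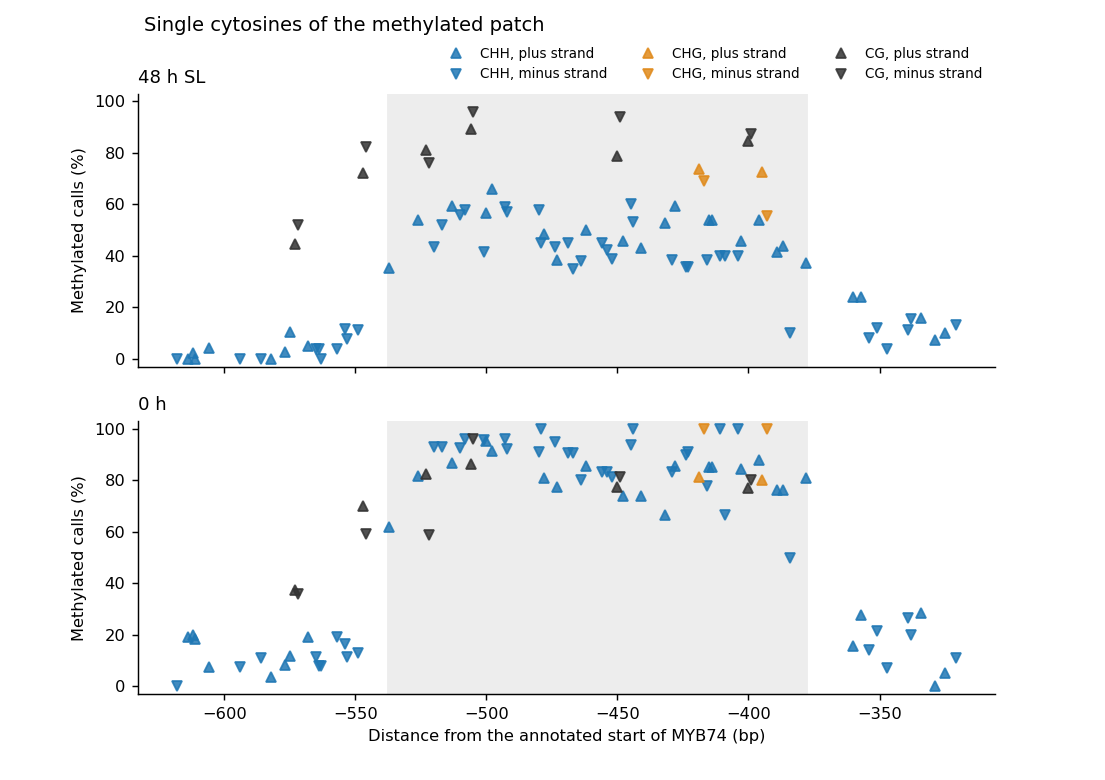
Methylated calls (%) at each cytosine with at least 4 calls, 3 replicates summed, against distance from the annotated start of MYB74 (bp), at 48 h SL (top) and 0 h (bottom); colours give the context, triangles up the plus and down the minus strand, and the grey band the patch. At 48 h SL the CHH points of the band lie between 10 and 65.8% and its CG points between 76.0 and 96.0%, whereas at 0 h the contexts share 1 range.

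Single cytosines moved in the same direction. All 45 CHH cytosines of the patch were lower in seedling than in dry seed, by 13.7 to 60 points with a median of 38.5, and so were the 4 CHG cytosines, by 7.5 to 44.4 points. Of the 8 CG cytosines 6 were higher, 1 was lower and 1 was equal. The median CHH cytosine was 45.0% methylated at 48 h SL and 85.7% at 0 h. Each of these values rests on 10 to 41 calls at 48 h SL and 6 to 29 at 0 h in CHH, so that a single cytosine is known only roughly. At 20 CHH cytosines the level was at or above 90% at 0 h, and at 0 of them at 48 h SL. The 5 CHH cytosines with the highest level at 0 h lay 479, 444, 404, 411 and 508 bp upstream, all on the minus strand. At the first of them, in a CCT triplet, 9 of 20 calls were methylated at 48 h SL and 21 of 21 at 0 h. The highest CG cytosine, 505 bp upstream, had 24 of 25 calls methylated at 48 h SL and 24 of 25 at 0 h. Both the patch and these highest cytosines were picked by their levels at 0 h. Such a choice by itself favours lower values at other times, and its part in these differences was not tested.

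Both strands were lower at 48 h SL. The 19 CHH cytosines of the plus strand stood at 50.8% ± 3.8 at 48 h SL and 81.6% ± 2.8 at 0 h, and the 26 of the minus strand at 46.3% ± 7.3 at 48 h SL and 90.05% ± 2.4 at 0 h (SD, n = 3 each). The minus strand was thus the higher one in dry seed and had 51.5% of its level left at 48 h SL, against 62.3% on the plus strand. This difference between strands was not tested, and the minus strand was read less, with as few as 2.41 calls per patch cytosine in 1 library. At 24 h SL the plus strand held 74.6, 69.1 and 60.8%, whereas the minus strand held 64.6, 100 and 71.9%. In 24 h SL replicate 2, all 63 minus-strand CHH calls of the patch were thus methylated (Wilson 95% interval from 94.3%), and that library showed a lower level on the plus strand alone. Its minus strand had 2.56 calls per patch cytosine, so few reads carry this value. The interval takes each call as separate, although 1 read can give several, and is therefore too narrow. The 4 CHG cytosines split by strand as well: the plus-strand pair was at 74.8% ± 12.2 at 48 h SL and 81.0% ± 13.8 at 0 h, and the minus-strand pair at 61.1% ± 9.6 and 100% ± 0 (SD, n = 3 each), on 22 calls at 48 h SL and 17 at 0 h. At 24 h SL every minus-strand CHG call of the 3 libraries was methylated, on 3 to 5 calls each.

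Every CHH triplet was lower in the seedlings. All 8 triplets that occur in the patch had means between 42.7 and 52.2% at 48 h SL and between 81.6 and 92.7% at 0 h. The CAA and CTA triplets, those that CMT2 prefers, stood at 51.4% ± 2.9 and 51.9% ± 5.8 at 48 h SL, against 83.5% ± 4.3 and 89.2% ± 2.1 at 0 h (SD, n = 3 each), on 10 and 7 cytosines. CTC, with 6 cytosines, was at 42.7% ± 10.5 at 48 h SL and 86.5% ± 3.9 at 0 h, and CCA, with 4, at 52.2% ± 2.9 and 92.7% ± 4.9 (SD, n = 3 each). The differences between triplets were not tested, and CCC was not present in the patch.

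Lower levels were seen from 24 h of light, and the calls against 0 h only at 48 h. Through stratification and 6 h of light the CHH level did not drop: in the nearer window it was 6.24 points higher at 48 h S and 8.57 points higher at 6 h SL than at 0 h (quasi-binomial model, p = 0.0482 and 0.0233, adjusted p = 0.739 and 0.735). At 24 h SL the level was 18.4 points lower than at 0 h in the farther window and 10.5 points lower in the nearer one (quasi-binomial model, p = 0.0140 and 0.0450, adjusted p = 0.758 for both), and against 6 h SL it was lower by 19.8 and 19.1 points (p = 0.0127 and 0.000724, adjusted p = 0.743 and 0.605). No CHH window of the genome was called in these 4 comparisons (0%). An unadjusted p below 0.05 was found in 39740 to 51692 windows, again a smaller share than 0.05 of those tested. With limma, 2 windows were called between 24 h SL and 0 h, 48 between 24 h SL and 6 h SL, and 0 in the other comparisons, none of them in the interval. The nearer window was a further 26.9 points lower at 48 h SL than at 24 h SL (quasi-binomial model, p = 0.000263, adjusted p = 0.0648) and the farther one 9.10 points lower (adjusted p = 0.587), where 0.248% of windows were called lower. That share is 2787 windows. The count was 40 without 24 h SL replicate 3, 631 to 2073 without any other single library, and 162 with a replicate block. The nearer window passed the threshold in this step under limma (adjusted p = 0.0190). In the farther window the 3 libraries of 24 h SL (45.3, 49.2 and 43.6%) were near those of 48 h SL. In the nearer one they (78.3, 79.1 and 64.0%) were well above them. The farther window also takes in the 8 cytosines before the patch, where 40, 43.9 and 42.3% of its 24 h SL calls fell. The libraries of 48 h SL had lower shares there, of 29.4, 31.5 and 38.4%. How far these shares moved the farther window's levels, and its differences to and from 24 h SL, was not tested. Neither its steps nor its nearness to 48 h SL are those of patch cytosines alone. Whether the 2 windows differ in timing was not tested either, and 24 h SL is the shallowest time point, with 75 to 163 CHH calls per window and library.

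As a share of the 0 h level, the loss at MYB74 was of a usual size among CHH windows of the genome with at least 20% methylation at 0 h. Of the 130609 CHH windows with at least 20% methylation at 0 h, the median window had 62.9% of its level left at 48 h SL, with quartiles at 53.9 and 73.4%. The 2 MYB74 windows had 57.3 and 54.9% left, between those quartiles. The starting level was high among all 1124550 CHH windows tested, of which 921416 had a level below 10% over all libraries. As high at 0 h as the nearer window were 1601 windows (0.142% of all tested), and as high as the farther one 9292 (0.826%). These counts stand beside the 130609 windows with at least 20% at 0 h. The share left was not computed for windows of a like starting level alone. CHG windows with at least 20% at 0 h had a median of 93.6% left and such CG windows 97.8%, beside 83.0% in the CHG window and 108 and 110% in the CG windows of the patch.

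The patch is a copy of a dispersed sequence. Its middle carries, on the plus strand and in this order, the letters of a box A and a box B (TTCGANNC), the internal promoter of tRNA genes, and ends at the run of 16 A. These 2 boxes were looked for after the sequence had been seen.
box A, chr4:2617869-2617880: TAGCTCAATTGG
box B, chr4:2617970-2617977: TTCGATCC
Box A lies 503 to 492 bp and box B 402 to 395 bp upstream of the gene. Windows of the same length and place before the other genes held both boxes in that order, on either strand, in 0.0510% of 27443 cases, and 25.9% of 625 annotated tRNA genes held both. The 5 cytosines within box A, all CHH, stood at 57.0% at 48 h SL and 94.2% at 0 h. The 4 within box B, 2 of them CG, stood at 71.4% at 48 h SL and 81.4% at 0 h. Of the 3 motifs listed in the design, ACGTG (core of the abscisic acid response element), TTGAC (core of the W box) and CAATNATTG (bound by HD-Zip proteins), none was found in the patch on either strand, while 11.3, 28.8 and 0.576% of the windows before other genes held them, which says only that these letters are not in this stretch.

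A search of chromosomes 1 to 5 with the patch and its 30-bp flanks (blastn, at least 120 bp aligned) found 83 other copies, at 68.5 to 80% identity with a median of 75%. Their alignments most often began 513 bp (25 copies) and ended 362 bp (30 copies) upstream of MYB74, counted on its own copy, which is the last A of the run. The most frequent near end thus lies where the methylated patch ends, apart from the cytosine-free run, and the most frequent far end 24 bp inside the patch. Most copies had other ends, and such alignments do not fix where the shared sequence begins or ends. A body with boxes A and B and an A-rich end is also what short interspersed elements derived from tRNA genes look like. No annotation of transposable elements was used here, and whether the patch is one was not tested. Of the 136 words of 25 bp in the patch, 7 occur elsewhere in the genome, and how well reads of the copies were told apart was not tested.

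The other copies behaved like the one at MYB74. With at least 30 CHH calls at each time, 79 copies could be measured, in 50-bp steps within each copy. All 79 were at least 20% methylated in CHH at 0 h, and all 79 were lower at 48 h SL. Their levels ran from 20.3 to 67.7% with a median of 47.1% at 48 h SL, and from 22.4 to 94.2% with a median of 82.3% at 0 h. The MYB74 copy, measured the same way, stood at 48.2% at 48 h SL and 86.7% at 0 h, and 22 of the 79 were as high at 0 h. It had 55.6% of its level left, against a median of 59.3% (quartiles 54.8 and 64.1%) in the others. CG levels changed by a median of -0.73 points in them and by 3.87 at MYB74, and CHG levels by a median of -12.9 points, over 78 copies, and by -14.5 at MYB74. Of the 83 copies 18 lay within 1000 bp upstream of a protein-coding gene. The copies share the libraries with the MYB74 locus, and no test was made between them and it.

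**Figure D4:**
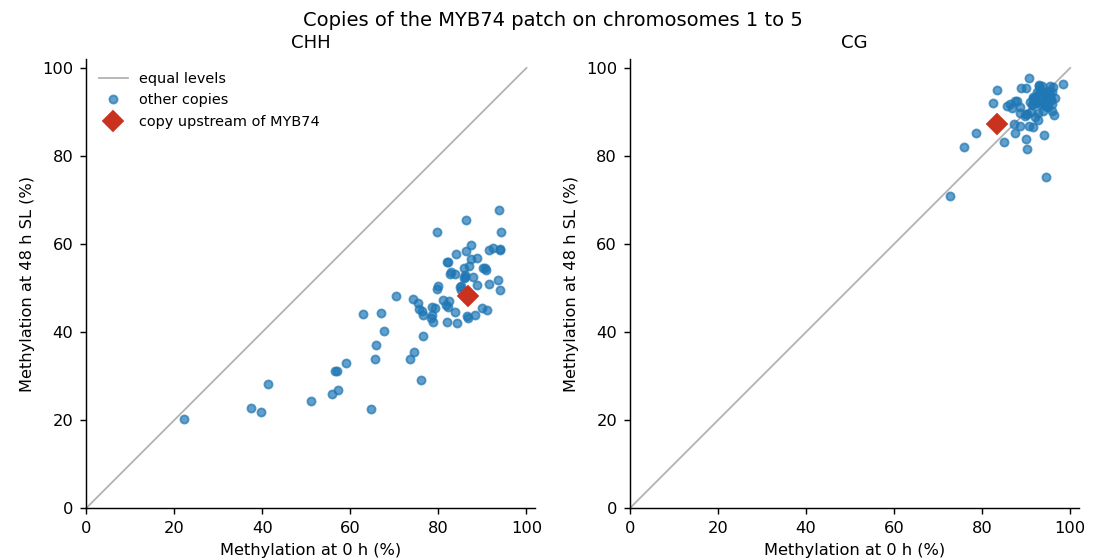
Methylation (%, 3 replicates summed) at 48 h SL (y axis) against 0 h (x axis) of the copy upstream of MYB74 (diamond) and 79 other copies (circles), for CHH (left) and CG (right), with a line of equal levels. All copies lie below the line in CHH, the diamond among them at 48.2 and 86.7%, and around it in CG.

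Outside the patch CHH methylation was low, but CG methylation was high in the 2 pairs of cytosines on its far side. The 1085 CHH cytosines of the rest of the interval averaged 1.06% ± 0.30 at 48 h SL and 0.90% ± 0.27 at 0 h, and the 212 CG cytosines 1.90% ± 0.60 and 1.38% ± 0.55 (SD, n = 3 each). In the 100 bp just before the patch CHH was 3.67% ± 0.82 at 48 h SL and 9.50% ± 4.4 at 0 h, and in the 100 bp just after it 10.5% ± 1.1 and 12.3% ± 4.1 (SD, n = 3 each). The 4 CG cytosines of those 100 bp before the patch, the 2 pairs named above, stood at 60.3% ± 5.7 at 48 h SL and 46.5% ± 14.6 at 0 h (SD, n = 3 each). The window 371 to 272 bp upstream, which takes in the cytosines after the run of A, was 1.62 points lower at 48 h SL than at 0 h (quasi-binomial model, adjusted p = 0.739). The other CHH windows not described here had levels of at most 4.69% over all libraries, the highest being at the very end of the interval downstream of the gene.

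Over the gene itself the mean level stayed below 1% in every context and time point. CHH levels over the annotated gene were 0.458, 0.906 and 0.536% at 48 h SL, against 0.352, 0.244 and 0.136% at 0 h. The groups did not overlap, but the CHH level of genomic bins with almost no CG or CHG methylation, a measure of unconverted or misread cytosines, also stood at 0.647, 0.846 and 0.371% at 48 h SL, against 0.241, 0.307 and 0.344% at 0 h. The part of that background in the gene's values was not tested. CG levels over the gene averaged 0.412% at 48 h SL and 0.196% at 0 h and CHG levels 0.385% and 0%, so the body methylation that many Arabidopsis genes carry in CG was not detectable at this depth. Within the gene, the 5' UTR was at 1.79% ± 2.1 in CHH at 48 h SL and 0.169% ± 0.29 at 0 h, and the introns at 1.1% ± 1.3 and 0.312% ± 0.13 (SD, n = 3 each). The single libraries of 48 h SL reached from 0.4 to 4.25% in the 5' UTR and from 0 to 2.52% in the introns, so 1 library carried much of either mean. The coding sequence was at 0.337% in CHH at 48 h SL and 0.248% at 0 h, and the 3' UTR at 0.476% and 0.228%. The first 500 bp downstream were at 0.548% in CHH at 48 h SL and 0.191% at 0 h, and the next 500 bp at 0.808% and 0.726%.

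In 7 blocks set by the annotation alone, and thus not by the methylation, the loss was diluted. CHH in the 500 bp upstream was 16.1% ± 3.4 at 48 h SL and 26.9% ± 3.0 at 0 h (SD, n = 3 each). In the 500 bp before those it was 6.97, 6.29 and 3.95% at 48 h SL, against 12.9, 8.09 and 9.26% at 0 h. Of 21 combinations of block and context, 0 passed an adjusted p of 0.05 in the exact 2-sided permutation test of the 3 libraries of 48 h SL against the other 12, and 4 had an unadjusted p below 0.05: these 2 (p = 0.0110 and 0.0132, adjusted p = 0.0923 for both), CHH of the gene (p = 0.0088, adjusted p = 0.0923) and CHH of the block that begins 1500 bp upstream (p = 0.0198, adjusted p = 0.104). The last 2 are differences of 0.389 and 0.602 points, higher at 48 h SL. With single-cytosine levels averaged in place of summed calls, the block next to the gene passed (adjusted p = 0.0462).

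Averaged over 1000 bp, the promoter of MYB74 had a CHH level of 13.6, 9.60 and 9.95% at 48 h SL, against 19.1, 17.8 and 19.8% at 0 h. It fell by 7.44 points (quasi-binomial model over 27247 promoters, adjusted p = 0.00106), where 16.3% of promoters were called lower and 19.6% higher, with a median difference of 0.256 points. The count of promoters called higher, 5338, moved by over 1.5 times with single libraries: it was 1403 without 0 h replicate 1, 2318 without 48 h SL replicate 2, 3264 without 0 h replicate 2 and 9037 without 48 h SL replicate 3. The count called lower, 4431, was 3818 to 4379 with each of the 6 libraries left out, and MYB74 was among them each time. A difference as low was found in 8.57% of promoters and a level as high at 0 h in 9.04%. At 24 h SL the same promoter held 15.3, 14.0 and 14.8%, below each library of 0 h, and was 4.36 points lower (quasi-binomial model, p = 0.0310, adjusted p = 0.497).

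The 3 other genes of subgroup 11 had no such patch. MYB41 (AT4G28110), known in Arabidopsis for suberin and cuticle formation, had 0.746, 0.820 and 0.607% CHH in its promoter at 48 h SL, against 0, 0.485 and 0.200% at 0 h, 0.54 points higher (quasi-binomial model, adjusted p = 0.0219). The background given above moved alongside it, its part was not tested, and the call was lost without 0 h replicate 1 (adjusted p = 0.152), 0 h replicate 3 (0.0502) or 48 h SL replicate 2 (0.0529). MYB102 (AT4G21440), induced by wounding and osmotic stress, had 1.29, 0.896 and 0.239% at 48 h SL, against 0.244, 0.677 and 0.313% in dry seed (difference 0.53 points, adjusted p = 0.0669). It was called higher with 2000 bp (adjusted p = 0.0288), without 0 h replicate 2 (0.0499) or without 48 h SL replicate 3 (0.0104). MYB49 (AT5G54230) had 0.307, 0.574 and 0.128% at 48 h SL, against 0.326, 0.248 and 0.138% in dry seed (difference 0.07 points, adjusted p = 0.624). None of their libraries reached 2% at either time, whereas that of MYB74 was above 9% in each.

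The list of differentially methylated regions deposited by the authors, which gives coordinates without a level, holds 1 region in the interval, in CHH. It spans chr4:2617823-2617994, 172 bp from 549 to 378 bp upstream, and so has the near end of the patch and begins 12 bp before it, at the cytosine with 13% at 0 h. Its CHH level in the libraries was 84.1% ± 2.0, 88.1% ± 1.6, 89.7% ± 0.76, 70.5% ± 7.4 and 47.2% ± 5.0 in time order (SD, n = 3 each). No region of the CHG and CG lists used here overlapped the interval.

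1 library stands apart in the seedling group: 48 h SL replicate 1 had the highest genome-wide CHG (13.1%) and CG (29.7%) levels of all 15 libraries, and more CHH (5.18%) than the other seedling libraries (4.06 and 3.49%). Its patch CHH level of 48.2% lay between theirs, and without it the nearer window was still called.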

How the data were processed

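MethylC-seq libraries of 15 samples (3 replicates at each of 5 time points) were analysed. Reads had been trimmed by the authors with Trim Galore 0.4.2 and aligned to TAIR10 with Bismark 0.16.3 at default settings, and after deduplication a genome-wide cytosine report was made. The deposited table gives counts of methylated and unmethylated calls per cytosine and library, not normalized and not pooled. The other deposited files, the region lists the authors made with HOME, hold only coordinates. The study filtered regions at a difference of 20 points. The lists used here do not say whether they precede that step. They hold 22441 CHH, 10655 CHG and 14888 CG regions, in each context more than the paper counts as differentially methylated. On summed calls, 1 listed CG region near the locus differs by less than 20 points between all time points. So do the CHG region chr4:2614691-2615240 (22.0 to 41.0%) and the CHH region chr4:2615552-2615589 (7.69 to 25.7%). The coordinate base is not given in the sources used here, and the regions were used as positions. Removal of duplicates by start caps the calls at a cytosine, and the lambda spike-in was not used, so conversion was judged from a nuclear background.

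Levels are methylated calls over all calls, summed. Windows of 100 bp with at least 3 cytosines of a context and 10 calls in every library entered a quasi-binomial logistic model in which every time point has a mean of its own. Dispersions were moderated over windows (squeezeVar, limma 3.58.1, R 4.3.3) and tests adjusted by Benjamini-Hochberg over all windows. Promoters (1000 bp) were treated likewise. Blocks and context differences were compared by exact permutation over libraries, with 455 arrangements of 3 against 12. Copies of the patch were found with blastn 2.17.0 (e-value limit 1e-05). Computations used Python 3.11.15, numpy 2.4.6, pandas 2.3.3 and scipy 1.17.1, and the model was tested on simulated data.

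Windows named are those at or above 10% over all libraries with the next window on each side, and single cytosines the 5 highest of a context at 0 h with at least 4 calls at each time point. Genes named are MYB74, the others of subgroup 11 and the neighbours. The locus, the lists and the tests were chosen with earlier results of these data known. Alternatives were smaller and larger windows, a shifted grid, other call minimums, limma, a common dispersion, and leaving out each library.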

Additional observations from a re-analysis of the deposited data

How the results depend on the processing

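Between 48 h SL and 0 h, 2 CHH windows of the interval were called, and so they were with 5 or 20 calls required, a grid shifted by 50 bp, minimum differences of 10 points or none, limma, a common dispersion and a dispersion trend (added after the data were seen). Windows of 200 and of 300 bp gave 1 each, and leaving out each library gave 1 to 2. No pairing by replicate number was seen. Deviations of same-numbered libraries correlated at -0.0285 to 0.0197 in CHH, and those of other libraries at -0.0281 to 0.0181. Most windows had low levels, where counting error could hide a weak pairing. A fit with the replicate block also called 2 windows. Between 48 h SL and 24 h SL, where 0 windows were called, limma and a common dispersion each called 1. Of the 21 blocks, 0 passed, but single-cytosine means gave 1, the plus strand alone 2 and the minus strand alone 1. Of the promoters of subgroup 11, 2 were called, but 1 with 500 bp, 3 with 2000 bp, and 1 to 3 with each library left out. MYB41 was the promoter lost and MYB102 the one gained. Directions turned round only where a value was not called. With each library left out, the CG window 471 to 372 bp upstream ran from -1.34 (without 0 h replicate 1) to 9.83 points, and the CHH window 571 to 472 bp upstream from -3.73 to 9.21 (48 h S minus 0 h) and from -5.78 to 7.16 (6 h SL minus 0 h), the lowest without 0 h replicate 2, and -1.59 without 6 h SL replicate 3. CG of the block that begins 1000 bp upstream was -0.11 as single-cytosine means, and CG of the block next to the gene 2.25 with 2 calls required in every library and 1.95 on the plus strand. MYB49 was -0.0037 with 500 bp and ran from -0.0095 (without 48 h SL replicate 2) to 0.15. The cause was not tested. CHH windows at 30 to 100% vary more (mean dispersion 3.67) than the moderated value used (3.04), so p-values there are somewhat too small. Replicates were called biological by the study, and p-values cover their spread only.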

Other observations

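The MYB74 patch lies in a gap between other methylated stretches. The nearest annotated gene before it is AT4G05097, which ends 3272 bp before the patch, and the nearest after MYB74 is AT4G05110 (ENT6), a nucleoside transporter gene, 6873 bp past the patch. Several deposited CHH regions lie near the interval. Among those upstream, chr4:2615231-2615365 was at 42.7% ± 0.62 at 48 h SL and 71.1% ± 1.4 at 0 h (SD, n = 3 each). On the downstream side, chr4:2621036-2621562, which begins 1089 bp past the end of the gene, was at 31% ± 0.94 at 48 h SL and 58.5% ± 2.4 at 0 h (SD, n = 3 each).

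The second of these also has a deposited CHG region over much the same bases, chr4:2621011-2621531, at 46.5% ± 5.1 at 48 h SL and 66.8% ± 1.6 at 0 h (SD, n = 3 each), whereas no region of the CHG list used here overlaps the patch. The deposited CHH region nearest to the interval on the upstream side, the short chr4:2615552-2615589, was not clearly lower in the seedlings: it was at 18.6% ± 9.4 at 48 h SL and 19.0% ± 8.5 at 0 h (SD, n = 3 each) and at 6.60% ± 3.7 at 24 h SL. No test was made on these regions, since they had been selected for change.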
